A study of Mus musculus with 2 samples.

Results

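Collagen genes were described across the cell types of the mouse olfactory epithelium. The members were chosen by name: they are the genes whose symbol is Col, a number, the letter a and a number, without Col17a1. That rule took 43 of 32534 features in the deposited matrices, and no measured value entered it. 1 single-cell library came from a transgenic animal of genotype Tg(Or8a1-OR1A1,-MAPT/mCherry)D736Feins/+ on the strain labelled Tg(Or8a1-OR1A1,-MAPT/mCherry)D736Feins/J (female, 9 weeks). The name of its transgene joins the mouse odorant receptor gene Or8a1, the human receptor gene OR1A1 and a MAPT/mCherry marker. The other came from an animal of genotype WT (female, 8 weeks), whose strain label crosses 10G4-V2.2-#7/Jax with Bl6/129SF1/J. The series is about how olfactory neurons choose a receptor. Both tissues were dissociated with an enzyme mixture that held collagenase and were passed through fine strainers, which can set the cell types recovered. With 1 library per genotype, cells are not replicates, so each value is given for each library and no test was made between genotypes: genotype, strain, age and library cannot be told apart.

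Collagens are proteins of the extracellular matrix in which chains wind into a triple helix. Fibrillar collagens (types I, II, III, V, XI, XXIV and XXVII) build or regulate the fibres of connective tissue and are made mainly by fibroblasts and by bone and cartilage cells. Type IV collagen forms the network of basement membranes, on which epithelia, endothelium, pericytes and glia sit, together with types XV and XVIII (multiplexins, which carry sugar chains) and type VII (which anchors the epithelial basement membrane to the tissue below). Type VI forms beaded filaments, FACITs (types IX, XII, XIV, XVI and others) decorate the surface of fibrils, type VIII forms short-chain lattices, and types XIII, XXIII and XXV span the plasma membrane. The olfactory epithelium is a layer of neurons, sustentacular cells and basal stem cells over a lamina propria that holds fibroblasts, vessels, glands and bundles of axons wrapped by ensheathing glia.

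The filters kept 1745 cells of the transgenic and 1117 of the wild-type library, with a median of 14440 and 12983 UMIs (unique molecular identifiers, each standing for 1 captured RNA molecule) per cell, and 1 cell barcode occurred in both libraries. Cells were clustered with all collagen genes left out, so that collagen levels did not place them. Clusters were called X-like from marker genes, which gave 23 classes and left 96 cells unnamed. Of these, 69 belong to a cluster whose marker score met the naming rule, described with the results flagged for a closer look. In fibroblast-like cells all 8 fibroblast markers were detected (summed 20894 and 16508 CPM, where CPM is UMIs of a gene per 1000000 UMIs of the class), in endothelial-like cells all 8 endothelial markers (7456 and 8088 CPM), and in horizontal basal-like cells all 6 of their markers (6650.4 and 6299 CPM). Where 2 values are joined by "and" without further words, the transgenic library comes first. UMIs count molecules at their 3′ end, so levels of different genes were set side by side without a correction for length. Intervals are exact Poisson intervals for CPM and exact binomial (Clopper-Pearson) intervals for shares, and cover counting error only. Free RNA was read from barcodes under 100 UMIs, in which collagens made up 435 and 343 CPM, against 688 and 991 CPM over all kept cells. A share of cells with a UMI is therefore given beside that of mature neuron-like cells.

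**Figure D1:**
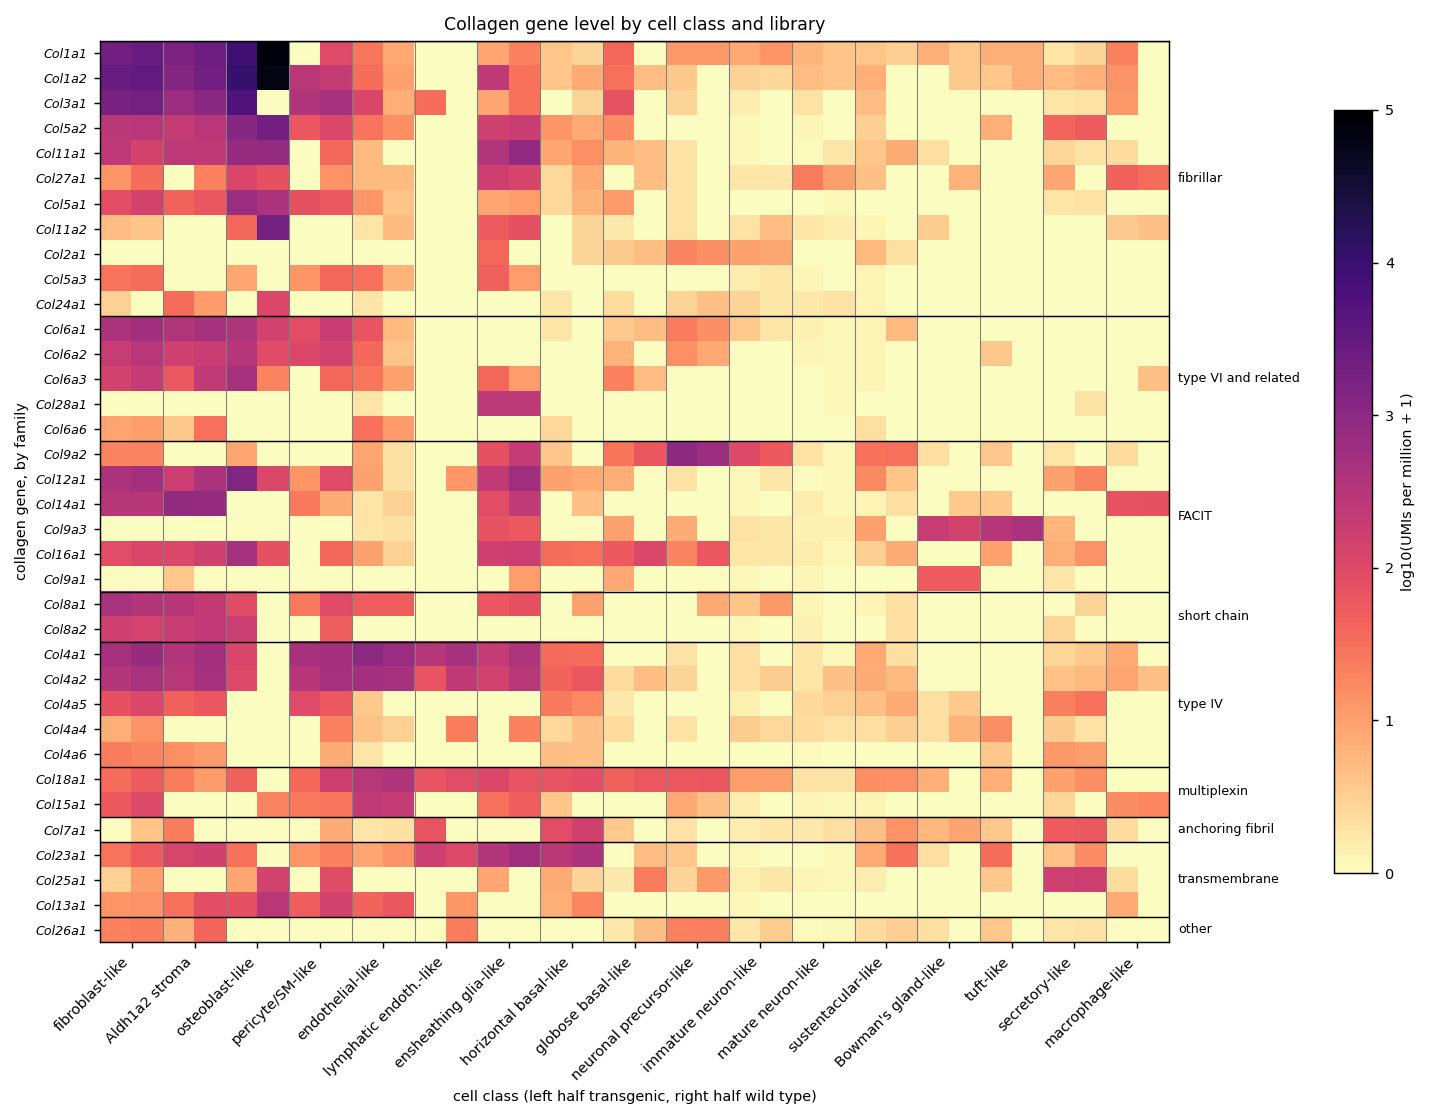
Levels of the 36 collagen genes with 50 or more UMIs over all kept cells of both libraries (rows, grouped by family) in 17 cell classes (columns), as log10 of CPM plus 1. Within a column the left side is the transgenic and the right side the wild-type library. Dark cells for the fibrillar genes lie under fibroblast-like, Aldh1a2 stromal and osteoblast-like cells, while Col4a1 and Col4a2 are dark in fibroblast-like, pericyte- or smooth muscle-like, endothelial-like and ensheathing glia-like columns.

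Type I and type III collagen genes were held by connective tissue cells in both libraries. In fibroblast-like cells (42 and 31 cells) Col1a1, the α1 chain of type I collagen, stood at 2128 CPM (95% interval 2003 to 2258) in the transgenic and 2678 CPM (95% interval 2503 to 2861) in the wild-type library. Single transgenic fibroblast-like cells ranged from 515 to 4992 CPM with a median of 1885, and wild-type ones from 308 to 14381 CPM with a median of 2527, so the cells of the libraries overlapped widely. Col1a2, the α2 chain, stood at 2659 and 3149 CPM. Col3a1, the single chain of type III, stood at 1816 and 1959 CPM. A Col1a1 UMI was found in every fibroblast-like cell of both libraries (median depth 11210.0 and 10434 UMIs) and in 5.74% and 3.86% of mature neuron-like cells (median 13869 and 12408.5 UMIs), a class that should lack it. The neuron-like level of Col1a1, 4.99 and 3.05 CPM, lay below the 72.8 and 77.5 CPM of free RNA.

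The window before the Col1a2 start is printed because Col1a1 and Col1a2 moved together across classes and the RefSeq promoter table held only Col1a2 of the pair. The 250 bases end just before the start (GRCm38.p6, chr6:4505368-4505617, plus strand, an upstream region). Capitals mark the 1 match to CCAAT, searched on both strands.
Col1a2: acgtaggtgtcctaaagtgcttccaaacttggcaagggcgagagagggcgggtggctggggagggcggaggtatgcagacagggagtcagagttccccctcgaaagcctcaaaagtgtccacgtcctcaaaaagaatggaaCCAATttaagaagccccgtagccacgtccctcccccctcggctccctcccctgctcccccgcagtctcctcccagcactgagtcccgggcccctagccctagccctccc

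The match lies at position -109 from the start, and 33.8% of all 32851 windows of this length hold CCAAT, so it is a description of the letters and not a site. The expression files use GRCm39, another build, and the coordinates were used only to locate the printed sequence.

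A stromal class led by Aldh1a2, Inmt and Tagln (33 and 10 cells) also held type I and III genes. It carried smooth muscle markers (summed 17008 and 11479.9 CPM) as well as fibroblast markers (2859.6 and 5924 CPM), and no cell type name was given to it: it is called Aldh1a2 stromal cells. Col1a1 stood at 1546 and 2309.9 CPM there, Col1a2 at 1247 and 2180.5 CPM and Col3a1 at 678 and 1026 CPM, each below fibroblast-like cells in the same library. The ratio of Col1a1 to Col1a2 UMIs was 0.800 and 0.850 in fibroblast-like cells, with upper bounds of 0.867 and 0.931. It was 1.24 and 1.06 in Aldh1a2 stromal cells, with lower bounds of 1.09 and 0.877. The intervals of the 2 classes did not overlap in the transgenic library and overlapped in the wild type.

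The highest type I levels lay in osteoblast-like cells, bone-forming cells that came with the tissue, but these were few (9 and 3 cells). Col1a1 stood at 8701 and 79435 CPM there and Col1a2 at 10692 and 67179.5 CPM. In the wild-type library 1 cell of 33264 UMIs held 4075 of the 4440 Col1a1 UMIs, together with 1418 UMIs of the osteocalcin gene Bglap. The other two wild-type cells stood at 13934 and 21949.6 CPM, inside the transgenic range of 1593 to 23838 CPM. The summed wild-type value is thus mostly that of 1 cell. Col3a1 had UMIs in all 9 transgenic osteoblast-like cells (5578 CPM) and 0 UMIs in the 3 wild-type cells, which allows up to 53.7 CPM at 3 counts.

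The minor fibrillar chains followed type I only in part. Col5a1 and Col5a2, chains of type V, which starts and limits fibril growth, stood at 84.3 and 138 CPM and at 265 and 285 CPM in fibroblast-like cells. In osteoblast-like cells they stood at 669 and 411 CPM and at 1155 and 2022 CPM. Col11a1, a chain of type XI best known from cartilage, was not limited to connective tissue: it stood at 263 and 138 CPM in fibroblast-like, 714 and 787 CPM in osteoblast-like and 352 and 855 CPM in ensheathing glia-like cells. Col11a2 reached 38 and 1896 CPM in osteoblast-like cells, where 97 of 106 wild-type UMIs came from the same single cell. Col5a3 had 87 UMIs in all, too few to rank its classes. Osteoblast-like cells also held Col12a1 at 1329.9 and 107 CPM, Col13a1 at 75.99 and 286 CPM and Col6a5, a chain related to Col6a3, at 228 and 0 CPM, the last with 30 and 0 UMIs.

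The remaining fibrillar genes had their highest levels outside the fibroblast-like class. Col27a1, whose product is known from cartilage, stood at 161 and 122 CPM in ensheathing glia-like cells and 114 and 71.6 CPM in osteoblast-like cells. It stood at 43.96 and 31.3 CPM in macrophage-like cells and 11.8 and 33.7 CPM in fibroblast-like cells. The order of macrophage-like and fibroblast-like cells thus differed between the libraries. Col2a1, the main collagen of cartilage, had 113 UMIs in all kept cells, with 0 UMIs in fibroblast-like cells of either library. It stood at 18.04 and 13.9 CPM in neuronal precursor-like cells and at 38.3 and 0 CPM in ensheathing glia-like cells. Col24a1 had 52 UMIs in all and stood at 33.2 and 9.96 CPM in Aldh1a2 stromal cells and at 0 and 107 CPM in the few osteoblast-like cells.

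Type VI, the fibril-associated types and type VIII divided among the stromal classes. Col6a1 and Col6a2, which pair with Col6a3 in beaded filaments, stood at 409.9 and 551 CPM and at 196 and 291 CPM in fibroblast-like cells, and Col6a3 at 143 and 202 CPM. Col6a1 was the most frequent of the 3 in both libraries, and the ratio of Col6a1 to Col6a2 UMIs was 2.09 and 1.89. Ensheathing glia-like cells had 0 UMIs of Col6a1 and Col6a2 in either library, which allows up to 22.96 and 28.2 CPM at 3 counts. Among FACITs, Col12a1 stood at 404 and 511 CPM in fibroblast-like and 174 and 418 CPM in Aldh1a2 stromal cells. Col14a1 ran the other way, at 302 and 309 CPM in fibroblast-like and 846 and 806 CPM in Aldh1a2 stromal cells. Its intervals in the transgenic library, 256 to 354 and 754 to 947 CPM, did not overlap. Outside stroma, Col14a1 stood at 67.9 and 73.03 CPM in macrophage-like cells, where free RNA held 10.3 and 5.20 CPM.

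Col8a1 and Col8a2, the chains of type VIII, stood at 441 and 334 CPM and at 157 and 132 CPM in fibroblast-like cells, and at 301 and 229 CPM and 191 and 229 CPM in Aldh1a2 stromal cells. Endothelial-like cells held Col8a1 (49.1 and 51.2 CPM) with 0 and 0 UMIs of Col8a2, so only the α1 chain was seen there. Col16a1, a FACIT of broader distribution, stood at 88.2 and 116 CPM in fibroblast-like, 153 and 178 CPM in ensheathing glia-like, 32.4 and 30.8 CPM in horizontal basal-like and 54.1 and 111 CPM in globose basal-like cells.

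Within the fibroblast-like class, 3 sub-clusters led by different genes held different collagens. In the sub-cluster led by Ecrg4, Gdf10 and Epyc (14 and 14 cells), Col8a1 stood at 863 and 498 CPM, Col11a1 at 585 and 231 CPM and Col12a1 at 638 and 635 CPM. In the sub-cluster led by Mfap5 and Apod (18 and 13 cells), Col1a1 stood at 2501 and 3522 CPM but Col8a1 at 179 and 180.04 CPM and Col11a1 at 71.6 and 46.97 CPM. In the smallest, led by Apod and Ccl11 (10 and 4 cells), Col3a1 stood at 2206 and 2661 CPM, and in the first at 1662 and 1394 CPM. Col8a1, Col11a1 and Col12a1 were therefore highest among the 3 in the first sub-cluster in both libraries.

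Type IV collagen genes were spread over vessels and stroma. The α1 and α2 genes, whose products form the common network of basement membranes, sit head to head on chromosome 8. Their RefSeq starts (Col4a1 at 11312826, Col4a2 at 11312805) lie 21 bases apart on opposite strands. The windows taken for this pair run past each start, and they share 78 bases (GRCm38.p6, chr8:11312777-11312854) that hold both starts. No shared base is therefore upstream of both genes. A stretch of 30 bases that overlaps this shared window (chr8:11312765-11312794, written on the plus strand) is printed because the pair's levels ran side by side. Capitals mark the 1 match to CCAAT, searched on both strands. The match sits at the edge of the shared stretch: its last base is the first shared base, and its other bases lie in the Col4a2 window only. The printed stretch lies before the Col4a2 start but past the Col4a1 start, on the transcribed side of Col4a1.
Col4a2, upstream: ggagctccCCAATttgttggcgctgccccc

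In endothelial-like cells (59 and 70 cells) Col4a1 stood at 1008 CPM (95% interval 952 to 1067) in the transgenic and 672 CPM (95% interval 622 to 726) in the wild-type library, and Col4a2 at 539 and 473 CPM. The transgenic value rested on few cells. 1 cell of 98985 UMIs held 602 of the 1192 Col4a1 UMIs, along with 115 UMIs of the endothelial marker Pecam1 and 304 of the pericyte marker Rgs5. In all, 4 transgenic and 3 wild-type endothelial-like cells had 10 or more Rgs5 UMIs. Without them Col4a1 stood at 514 and 675 CPM and Col4a2 at 296 and 464 CPM, so the order of the libraries turned. The median endothelial-like cell stood at 301 and 436 CPM for Col4a1. Across all cells of the class a Col4a1 UMI was found in 94.9% and 94.3% (median depth 14002 and 9262.5 UMIs), against 1.09% and 0.227% of mature neuron-like cells.

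Fibroblast-like cells held type IV genes at levels near those of endothelial-like cells left after that step, 455 and 719 CPM of Col4a1 and 343 and 447 CPM of Col4a2. Pericyte- or smooth muscle-like cells, the mural cells of vessels (8 and 10 cells), stood at 488 and 515 CPM and at 309 and 489 CPM, and all of these cells had a Col4a1 UMI. The endothelial markers were also detected in them (summed 1725 and 1697 CPM, against 8707 and 6051 CPM for pericyte markers), and the part of endothelial RNA in these values was not tested. Mural cells also held fibrillar genes, with Col3a1 at 369 and 477 CPM, Col1a2 at 285 and 209.7 CPM and Col1a1 at 0 and 95.3 CPM. In the transgenic library 1 cell held 23 of the 31 Col3a1 UMIs, and in the wild type 1 cell held 14 of the 15 Col1a1 UMIs. Fibroblast markers summed to 11.9 and 477 CPM in the class, with 1 and 5 of 8 detected and Dcn at 0 in the transgenic library. For comparison, lymphatic endothelial-like cells (4 and 8) stood at 323 and 478 CPM for Col4a1, ensheathing glia-like cells at 207 and 385 CPM and horizontal basal-like cells at 35.4 and 32.5 CPM. The ratio of Col4a1 to Col4a2 UMIs was 1.87 and 1.42 in endothelial-like, 1.33 and 1.61 in fibroblast-like, 1.58 and 1.05 in pericyte- or smooth muscle-like and 0.857 and 0.528 in horizontal basal-like cells. The interval excluded 1 in both libraries for endothelial-like and fibroblast-like cells, and in neither for pericyte- or smooth muscle-like cells. In horizontal basal-like cells the ratio was below 1, with upper bounds of 1.28 and 0.945. The interval, which covers counting error only, thus excluded 1 only in the wild type, where 1 cell held 22.2% of the Col4a2 UMIs.

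The other type IV chains were far lower. Col4a5, which with Col4a6 forms a network of epithelial and smooth muscle basement membranes, stood at 72.6 and 107 CPM in fibroblast-like, 95.2 and 57.2 CPM in pericyte- or smooth muscle-like, 24.3 and 15.4 CPM in horizontal basal-like and 21.03 and 28.6 CPM in respiratory secretory-like cells, and at 2.54 and 0 CPM in endothelial-like cells. Col4a6 stood at 21.6 and 18.4 CPM in fibroblast-like cells. Col4a3 and Col4a4, chains of the kidney and lung network, had 18 and 81 UMIs over all cells of both libraries.

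Against fibroblast-like cells, the multiplexins marked endothelium more sharply than type IV did. Col18a1, the source of endostatin, stood at 291 CPM (95% interval 261 to 323) in the transgenic and 365 CPM (95% interval 328 to 405) in the wild-type library in endothelial-like cells, against 31.4 and 52.03 CPM in fibroblast-like cells. Col15a1, its relative in vessel and muscle basement membranes, stood at 231 and 202 CPM against 54.9 and 97.9 CPM. Without the cells with 10 or more Rgs5 UMIs the endothelial-like levels were 291 and 366 CPM for Col18a1 and 173 and 207 CPM for Col15a1. Other stromal classes also held Col18a1, at 35.7 and 165 CPM in pericyte- or smooth muscle-like and 107 and 65.7 CPM in ensheathing glia-like cells. Col18a1 extended into epithelium, at 66.4 and 80.4 CPM in horizontal basal-like, 56.8 and 62.7 CPM in neuronal precursor-like and 14.3 and 13.8 CPM in sustentacular-like cells. Col15a1 did not reach 20 CPM in horizontal basal-like, precursor-like or sustentacular-like cells. Col13a1, a transmembrane collagen, stood at 42.3 and 60.5 CPM in endothelial-like and 47.6 and 139.8 CPM in pericyte- or smooth muscle-like cells.

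The endothelial-like sub-clusters split these genes further. Col4a1 was highest in the sub-cluster led by Plvap, Rbp7 and Kdr (10 and 17 cells), at 3008 and 1848 CPM, where Col13a1 stood at 157 and 445 CPM. The transgenic value there contains the single deep cell described above. In the sub-cluster led by Abcb1a, Lef1 and Slc2a1 (20 and 24 cells), Col4a1 was lower, at 465 and 459.5 CPM, and Col18a1 was at 465 and 615 CPM. Col8a1 reached 194 and 53.5 CPM in the sub-cluster led by Sox17 and Gja4 (9 and 10 cells), and Col6a6 reached 128 and 57.5 CPM in that led by Vwf and Selp (14 and 12 cells). Col6a6, a chain related to Col6a3, had 64 UMIs in all cells.

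**Figure D2:**
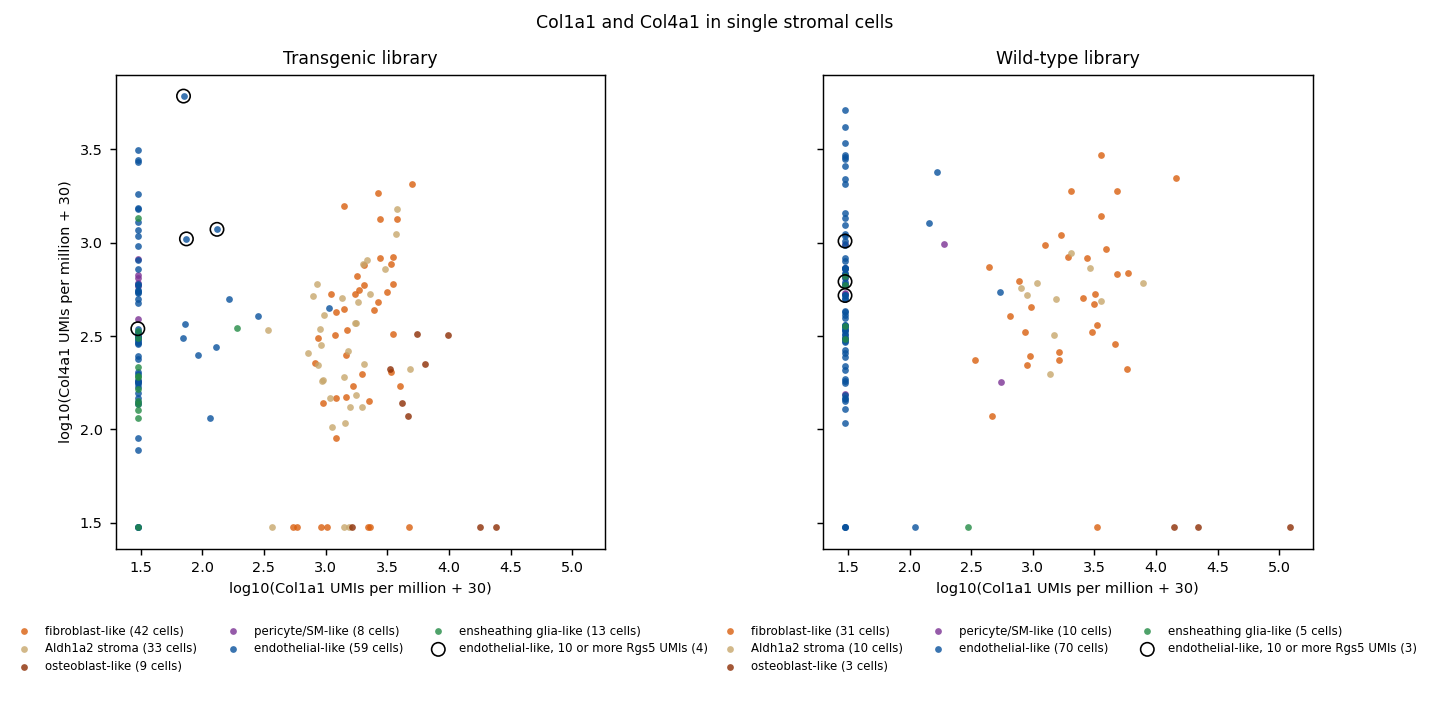
Each point is 1 cell, with Col1a1 on the horizontal and Col4a1 on the vertical axis, both as log10 of CPM plus 30, in the transgenic (left) and wild-type (right) library; colours give the cell class and rings mark endothelial-like cells with 10 or more Rgs5 UMIs. Fibroblast-like and Aldh1a2 stromal cells hold both genes, most endothelial-like cells lie at the left edge with no Col1a1 UMI, and the highest transgenic Col4a1 point is a ringed cell.

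Ensheathing glia-like cells, the glia that wrap olfactory axons, held a mixture of their own, read from 13 and 5 cells. Their markers summed to 21288 and 19741 CPM. Col23a1, a transmembrane collagen, stood at 337 and 545 CPM, Col11a1 at 352 and 855 CPM and Col12a1 at 237 and 592 CPM. Col28a1, a type VI relative known from peripheral nerve, stood at 260.2 and 254 CPM, with UMIs in 7 of 13 and 3 of 5 cells. Of its 67 UMIs in all kept cells, 34 and 27 lay in this class, and 1 cell in each library held 61.8% and 77.8% of those. It had 0 UMIs in fibroblast-like, pericyte- or smooth muscle-like and horizontal basal-like cells of both libraries.

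The window before Col28a1 is printed because nearly all UMIs of the gene lay in 1 class (GRCm38.p6, chr6:8192618-8192867, minus strand, an upstream region). Capitals mark the 1 match to ACAAAG, a core motif of SOX factors, searched on both strands.
Col28a1: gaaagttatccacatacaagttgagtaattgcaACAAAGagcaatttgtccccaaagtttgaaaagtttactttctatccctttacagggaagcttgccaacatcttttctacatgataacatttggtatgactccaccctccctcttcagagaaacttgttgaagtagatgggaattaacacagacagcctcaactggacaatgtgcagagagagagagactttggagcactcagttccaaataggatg

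The match lies at -217, and 16.5% of windows hold this motif, so nothing about a factor follows from it. Other members in ensheathing glia-like cells were Col27a1 at 161 and 122 CPM, Col16a1 at 153 and 178 CPM, Col5a2 at 153 and 188 CPM, Col14a1 at 84.2 and 235 CPM and Col9a2 at 76.5 and 207 CPM. Col1a2 stood at 245 and 28.2 CPM in glia-like cells and Col1a1 at 7.65 and 18.8 CPM. The transgenic library had 1 UMI of Col1a1 against 32 of Col1a2, but this rested on few cells. Of its 13 cells, 9 had neither chain, and the highest cell stood at 2235 CPM of Col1a2. The wild type did not show such a gap between the chains. Endothelial markers summed to 2204 and 2367 CPM in this class, from 3 and 2 of 8 genes, with the defining Pecam1 and Cdh5 at 0. Fibroblast markers summed to 222 and 254 CPM, and their part in these values was not tested.

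Basal cells, the stem cells of the epithelium, held a transmembrane collagen and the anchoring fibril collagen. Col23a1 stood at 266 CPM (95% interval 239 to 295) in the transgenic and 409 CPM (95% interval 359 to 464) in the wild-type library in horizontal basal-like cells (68 and 22 cells), which rest on the basement membrane. A Col23a1 UMI was found in 97.1% of the transgenic and all of the wild-type cells (median depth 14004.5 and 15811 UMIs) and in 0% and 0.227% of mature neuron-like cells. Col7a1, the anchoring fibril collagen, stood at 87.7 and 149 CPM. It stood at 0 and 3.06 CPM in fibroblast-like cells and at 52.6 and 58.2 CPM in respiratory secretory-like cells. Col4a1 and Col4a2 stood at 35.4 and 32.5 CPM and 41.3 and 61.6 CPM, well under the vessel and stromal classes. Horizontal basal-like cells therefore held basement membrane and transmembrane types with little fibrillar RNA.

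Globose basal-like cells, the dividing progenitors (53 and 8 cells), did not hold these genes at such levels: Col23a1 stood at 0 and 3.82 CPM and Col7a1 at 2.64 and 0 CPM. They held Col16a1 at 54.1 and 111 CPM, Col18a1 at 44.2 and 57.3 CPM and Col9a2 at 25.7 and 61.1 CPM. Their transgenic Col3a1 level of 68.6 CPM came from 1 cell, which held 103 of 104 UMIs and also 54 UMIs of Col1a1. No wild-type globose basal-like cell had a Col3a1 UMI.

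Among neuronal classes 1 collagen passed 100 CPM, and only in precursor-like cells. Col9a2, a chain of the FACIT type IX, stood at 939.7 CPM (95% interval 884 to 999) in the transgenic and 638 CPM (95% interval 549 to 737) in the wild-type library in immediate neuronal precursor-like cells (69 and 15 cells). Single precursor-like cells ranged from 0 to 2749.7 CPM with a median of 954 in the transgenic and from 0 to 1663 CPM with a median of 699.7 in the wild-type library. Immature neuron-like cells stood at 97.7 and 55.1 CPM and mature neuron-like cells at 0.888 and 0.180 CPM, while free RNA held 34.5 and 9.10 CPM. The order of the 3 stages was the same in both libraries and their intervals did not overlap. A Col9a2 UMI was found in 97.1% and 93.3% of precursor-like cells (median depth 16012 and 18704 UMIs), 34.03% and 30.4% of immature and 1.24% and 0.227% of mature neuron-like cells. The chain's partners were nearly absent: Col9a3 had 7 and 0 UMIs and Col9a1 0 and 0 in precursor-like cells, against 1042 and 183 of Col9a2.

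The window before Col9a2 is printed because of this difference between the neuronal stages (GRCm38.p6, chr4:121039316-121039565, plus strand, an upstream region). Capitals mark the 1 match to CANNTG, the E-box of basic helix-loop-helix factors, which reads the same on both strands.
Col9a2: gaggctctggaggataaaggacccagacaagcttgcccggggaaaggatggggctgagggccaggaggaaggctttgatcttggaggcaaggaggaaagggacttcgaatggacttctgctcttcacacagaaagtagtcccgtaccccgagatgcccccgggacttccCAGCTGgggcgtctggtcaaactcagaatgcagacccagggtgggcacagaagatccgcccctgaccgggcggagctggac

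The match lies at -81 from the start, and 66.2% of windows of this length hold an E-box. Precursor-like cells also held Col18a1 at 56.8 and 62.7 CPM, Col26a1 at 19.8 and 20.9 CPM, Col6a1 at 22.5 and 13.9 CPM and Col2a1 at 18.04 and 13.9 CPM. Immature and mature neuron-like cells together had 83.2 and 45.9 CPM of all collagens, below free RNA in both libraries. Col2a1, Col4a4, Col9a2, Col24a1 and Col27a1 stood above their own free RNA level in these pooled neurons in both libraries. Free RNA of Col4a4 and of Col24a1 rested on 2 and 1 UMIs, with upper bounds of 3.37 and 2.41 CPM. In mature neuron-like cells these genes stood below those bounds, at 1.33 and 0.898 CPM and at 0.666 and 0.898 CPM. The share of all genes above free RNA was not computed, so this list has no background.

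In mature neuron-like cells (645 and 440 cells) the main collagen was Col27a1, at 23.1 CPM (95% interval 20.1 to 26.4) in the transgenic and 9.16 CPM (95% interval 6.82 to 12.04) in the wild-type library. Its UMIs were in 18.3% and 6.36% of these cells, and in 9.46% and 3.18% after each cell was thinned to 5000 UMIs. Free RNA held 4.20 and 3.03 CPM of it. Among the transgenic mature neuron-like cells, the 316 with a UMI of the transgene stood at 28.9 CPM (95% interval 24.1 to 34.4) and the 329 without one at 17.6 CPM (14.01 to 21.9). These cells share 1 library, and a cell without a transgene UMI may still carry transgene RNA.

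Sustentacular-like cells, the supporting cells, were poor in collagen, with 129 and 129 CPM of all members in 85 and 21 cells. Their highest member in the transgenic library was Col9a2 (28.3 and 30.8 CPM), of which 1 cell held 42.1% and 44.8% of the UMIs. Col23a1 stood at 6.61 and 28.7 CPM and Col18a1 at 14.3 and 13.8 CPM. In the glands and chemosensory cells the third type IX chain appeared instead. Col9a3 stood at 305 and 434 CPM in tuft-type microvillar-like cells and 192 and 136 CPM in Bowman's gland-like cells, which also held Col9a1 at 53.4 and 52.3 CPM. Col9a1 and Col9a3 thus occurred together in Bowman's gland-like cells, while Col9a2 had its highest level in neuronal precursor-like cells. Both Col9a1 and Col9a3 were also held by an unnamed cluster, described with the results flagged for a closer look. Ensheathing glia-like cells held Col9a2 and Col9a3, the latter at 68.9 and 56.3 CPM. Col25a1, a transmembrane collagen studied in brain and muscle innervation, stood at 155 and 177 CPM in respiratory secretory-like cells, beside Col5a2 at 39.6 and 51.9 CPM.

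The families' shares of all collagen UMIs ordered the classes. Fibrillar chains made up 69.2% (95% interval 67.99 to 70.5) of collagen UMIs in transgenic and 67.6% (95% interval 66.1 to 69) in wild-type fibroblast-like cells, and type IV 8.57 and 10.5%. In endothelial-like cells type IV made up 59.6% (95% interval 57.9 to 61.3) and 59.7% (95% interval 57.4 to 61.9), multiplexins 19.97 and 29.4%, and fibrillar chains 9.51 and 2.71%. The cells with 10 or more Rgs5 UMIs held most of the transgenic fibrillar UMIs: without them Col3a1 stood at 15.5 and 1.12 CPM there instead of 112.5 and 6.15 CPM. Pericyte- or smooth muscle-like cells lay between, with 38.5 and 32.02% fibrillar and 43.1 and 33.8% type IV. Ensheathing glia-like cells had 37.1 and 30.9% fibrillar, 21.5 and 29.8% FACIT and 12.2 and 16.1% type IV. In horizontal basal-like cells, types IV, VII, XV and XVIII together made up 42.6 and 39.8%, transmembrane types 45.1 and 49.2% and fibrillar chains 4.65 and 5.31%. FACITs made up 85.2 and 82.04% in neuronal precursor-like cells. In mature neuron-like cells fibrillar chains made up 75.9 and 60.1%, led by Col27a1, with Col1a1 next in the transgenic library at a level below free RNA.

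**Figure D3:**
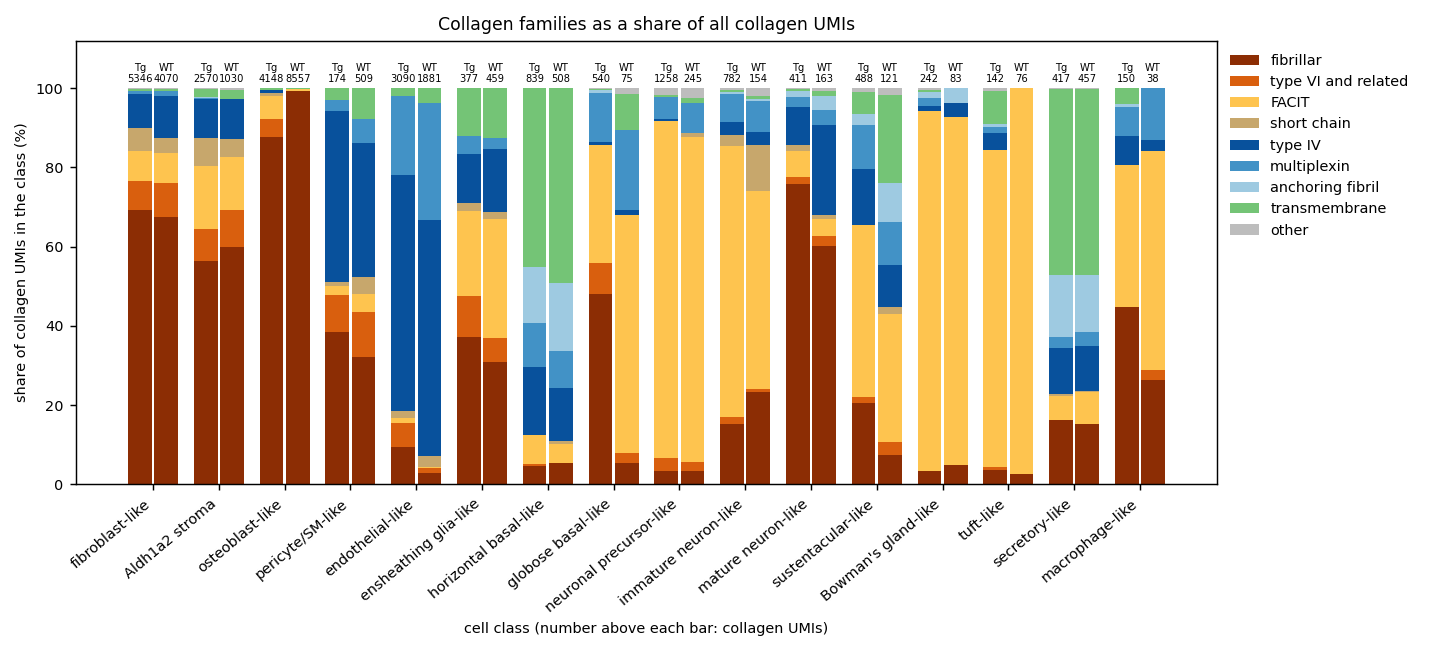
Stacked bars give the share (%) of each collagen family among all collagen UMIs of a cell class, for the transgenic (left bar, Tg) and wild-type (right bar, WT) library, with the number of collagen UMIs above each bar. Fibrillar chains fill most of the fibroblast-like (69.2 and 67.6%) and osteoblast-like (87.8 and 99.2%) bars, type IV most of the endothelial-like bars (59.6 and 59.7%), and FACITs most of the neuronal precursor-like bars (85.2 and 82.04%).

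The class with the highest level was then counted for each member. Among 14 classes with 10 or more cells in each library, 23 members were measured, meaning 20 CPM or more and 50 UMIs or more in 1 class of 1 library. Of these, 8 were highest in fibroblast-like cells in both libraries (Col1a1, Col1a2, Col3a1, Col5a2, Col6a1, Col6a2, Col8a1 and Col12a1), against 2.04% of all 10750 measured genes. Endothelial-like cells were highest for 3, Col4a2, Col15a1 and Col18a1 (background 5.91%), and Col4a2 was lost when the cells with 10 or more Rgs5 UMIs were left out. Aldh1a2 stromal cells were highest for Col8a2 and Col14a1 (2.77%), and horizontal basal-like cells for Col7a1 and Col23a1 (2.52%). The fibroblast-like count depended on which other stromal cells were admitted: it was 0 with a minimum of 500 or 1000 UMIs per cell, 5 with 2000 and 1 at a clustering resolution of 0.5. The background fell as well, to 0.783% with 500, 0.765% with 1000, 1.60% with 2000 and 1.26% at resolution 0.5. With the 500 UMI minimum, osteoblast-like cells (24 and 14) entered the ranking and were highest for 8 and 5 of these 8 genes. With the 2000 UMI minimum no osteoblast-like class was highest for them, and Col6a1 and Col6a2 in the transgenic library and Col1a1 in the wild type were highest in Aldh1a2 stromal cells. Single members were highest in neuronal precursor-like (Col9a2, 6.95%), tuft-type microvillar-like (Col9a3, 4.59%) and respiratory secretory-like cells (Col25a1, 1.36%). None was highest in both libraries in mature (8.11%) or immature (6.34%) neuron-like, sustentacular-like (3.85%), macrophage-like (4.77%), ionocyte-type microvillar-like (2.92%), myeloid progenitor-like (3.03%) or erythroid-like (1.14%) cells.

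Admitting the small classes changed the ranking. With classes of 3 or more cells admitted, 26 members were measured, and osteoblast-like cells were highest in both libraries for 5 (Col1a1, Col1a2, Col5a1, Col5a2 and Col13a1, background 0.835%). Fibroblast-like cells then kept Col6a1 and Col8a1 (0.673%). Ensheathing glia-like cells were highest for Col23a1 and Col27a1 (2.61%), endothelial-like cells for Col15a1 and Col18a1 (2.15%), and no member was highest in pericyte- or smooth muscle-like cells (1.18%). The members highest in Aldh1a2 stromal (1.28%), neuronal precursor-like (3.77%), tuft-type microvillar-like (2.58%) and respiratory secretory-like cells (0.844%) stayed as above, and horizontal basal-like cells (1.47%) were highest for Col7a1 only. The wild-type osteoblast-like values rest on 3 cells.

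Fibroblast-like and endothelial-like cells were then set against each other over 4604 genes measured in either. Of 17 measured members, 12 were at least 4-fold higher in fibroblast-like cells in both libraries, against 5.23% of all genes. Only Col18a1 was at least 4-fold higher in endothelial-like cells in both (8.71% of all genes). The members' median log2 ratio was 3.15 and 6.16, that of all genes -0.28 and -0.18. The 5 measured fibrillar genes were all on the fibroblast side (median 5.71 and 8.10), and neither of the 2 measured type IV genes was past 4-fold (-0.89 and 0.01). The fibrillar ratios were smaller in the transgenic library. Without the cells with 10 or more Rgs5 UMIs the endothelial-like level of Col1a1 was 21.7 and 7.83 CPM, near the 25.4 and 7.17 CPM with them, and that of Col1a2 was 12.4 and 6.71 CPM in place of 32.1 and 8.20 CPM.

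**Figure D4:**
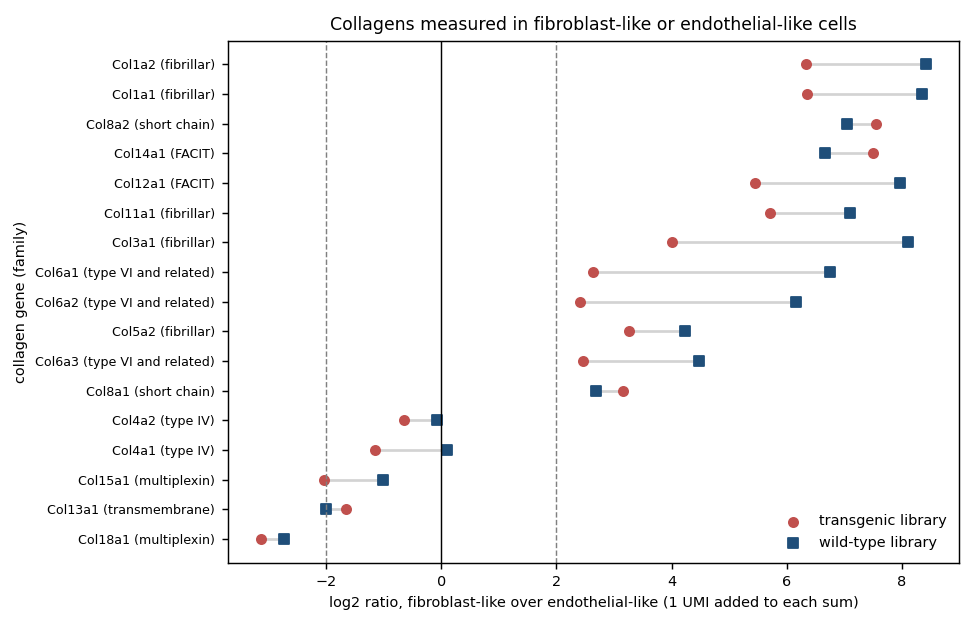
Log2 ratio of the level in fibroblast-like over endothelial-like cells (horizontal axis, 1 UMI added to each sum) for the 17 collagens measured in either class, with 1 point per library and the family in brackets; dashed lines mark 4-fold. Fibrillar, type VI, type VIII and FACIT points lie right of the dashed line in both libraries, Col4a1 and Col4a2 lie between the lines and Col18a1 lies left of the line.

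The genes that build and handle collagen did not all share this side. Of 10 measured genes of chain modification and folding (18 listed), 1 was past 4-fold on the fibroblast side in both libraries, namely P3h3, a prolyl 3-hydroxylase family member (157 and 104 CPM in fibroblast-like against 11 and 9.22 CPM in endothelial-like cells). P4ha1, a subunit of the prolyl 4-hydroxylase that stabilises the helix, stood at 106 and 97.9 CPM in fibroblast-like against 43.1 and 28.7 CPM in endothelial-like cells. Of 5 measured genes of processing and cross-linking (12 listed), 4 were on the fibroblast side. Pcolce, which enhances removal of the procollagen end piece, stood at 500.1 and 435 CPM in fibroblast-like against 18.6 and 9.22 CPM in endothelial-like cells, and Loxl1, a lysyl oxidase-like enzyme, at 227 and 196 CPM in fibroblast-like against 3.38 and 4.10 CPM in endothelial-like cells. Pxdn, the peroxidase that cross-links type IV collagen, was past 4-fold on neither side, at 31.4 and 33.7 CPM in fibroblast-like against 58.4 and 52.3 CPM in endothelial-like cells.

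Of 9 measured fibril partners (10 listed), 7 were on the fibroblast side, but Dcn and Lum, small proteoglycans that bind fibrils, were also used to name the fibroblast-like class. Fn1 (fibronectin) stood at 269 and 226 CPM in fibroblast-like against 837 and 729.6 CPM in endothelial-like cells and Sparc, which binds collagen, at 2169 and 2099 CPM in fibroblast-like against 2553 and 2525 CPM in endothelial-like cells. Basement membrane partners were divided: of 10 measured (15 listed), Lama2 was on the fibroblast side (275 and 272 CPM in fibroblast-like against 11.8 and 0 CPM in endothelial-like cells) and Lama3 and Lama5 on the endothelial side. Lama3 stood at 0 and 0 CPM in fibroblast-like against 65.1 and 66.6 CPM in endothelial-like cells. Of 3 measured collagen receptors (10 listed), Ddr2, a receptor for fibrillar collagen, was on the fibroblast side (147 and 187 CPM in fibroblast-like against 11 and 16.4 CPM in endothelial-like cells) and Itga1, an integrin chain that binds type IV collagen, stood at 114 and 205 CPM in fibroblast-like against 513 and 529 CPM in endothelial-like cells. Of 4 measured degradation genes (10 listed), 3 were on the fibroblast side, among them Mmp2, a gelatinase (363 and 428 CPM in fibroblast-like against 7.61 and 4.10 CPM in endothelial-like cells).

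As a description over 28 points (14 classes in 2 libraries, which share depth and cells), Pearson's r of log levels was 0.980 for Col1a1 with Col1a2, 0.969 with Col3a1 and 0.754 with Col4a1. It was 0.991 for the Col4a1 and Col4a2 pair and 0.993 for Col6a1 and Col6a2. The genes with the pattern most like Col1a1 outside the collagens were Cpxm1 (0.984), Alx1, Itga8, Twist1 and Ecrg4 (0.980). Those most like Col4a1 were Cxcl12 (0.963), Ldb2, Lamb1, Itm2a and Gng11 (0.955).

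Between the libraries, collagen levels within a class were mostly within 2-fold. In fibroblast-like cells 0 of 14 measured members were past 2-fold, against 3.45% of 1682 measured genes. Log2 ratios, transgenic over wild type, ran from -0.66 (95% interval -0.93 to -0.39) for Col4a1 to 0.91 (95% interval 0.44 to 1.45) for Col11a1, with a median of -0.29 over members and 0.02 over all measured genes. In Aldh1a2 stromal cells 1 of 13 was past 2-fold (background 5.95%): Col12a1, at 174 and 418 CPM, a log2 ratio of -1.27 (95% interval -1.85 to -0.66). In endothelial-like cells 2 of 8 were past 2-fold (background 3.45%). Col3a1 and Col6a1 stood 3.98 and 3.69 higher on the log2 scale in the transgenic library, and both rested on the cells with 10 or more Rgs5 UMIs. Without those cells Col6a1 stood at 0 and 1.12 CPM and Col3a1 at 15.5 and 1.12 CPM, from 15 UMIs and 1 UMI, so both fell below the measurement limit of 50 UMIs, and no measured member was past 2-fold. The Col3a1 values themselves still differed by more than 2-fold on these few UMIs. In mature neuron-like cells the 1 measured member, Col27a1, had a log2 ratio of 1.31 (95% interval 0.89 to 1.81), where 5.06% of genes were past 2-fold.

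In the other classes with measured members none was past 2-fold. Horizontal basal-like cells had 0 of 4 (background 2.75%), with Col7a1 at -0.77 (95% interval -1.17 to -0.35) and Col23a1 at -0.62 (95% interval -0.86 to -0.38). Neuronal precursor-like cells had 0 of 2 (2.6%), with Col9a2 at 0.55 (95% interval 0.33 to 0.79), and respiratory secretory-like cells 0 of 3 (6.25%). Immature neuron-like (2.53%), sustentacular-like (3.06%), macrophage-like (3.11%) and tuft-type microvillar-like cells (2.59%) each had 0 of 1. Col9a2 in immature neuron-like cells was at 0.81 (95% interval 0.47 to 1.20), and 1 cell held 35.1% of its 74 wild-type UMIs. Without the cell with the most Col9a2 UMIs in each library its ratio was 1.32, which is past 2-fold. Col9a3 in tuft-type microvillar-like cells was at -0.52 (95% interval -0.95 to -0.07).

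**Figure D5:**
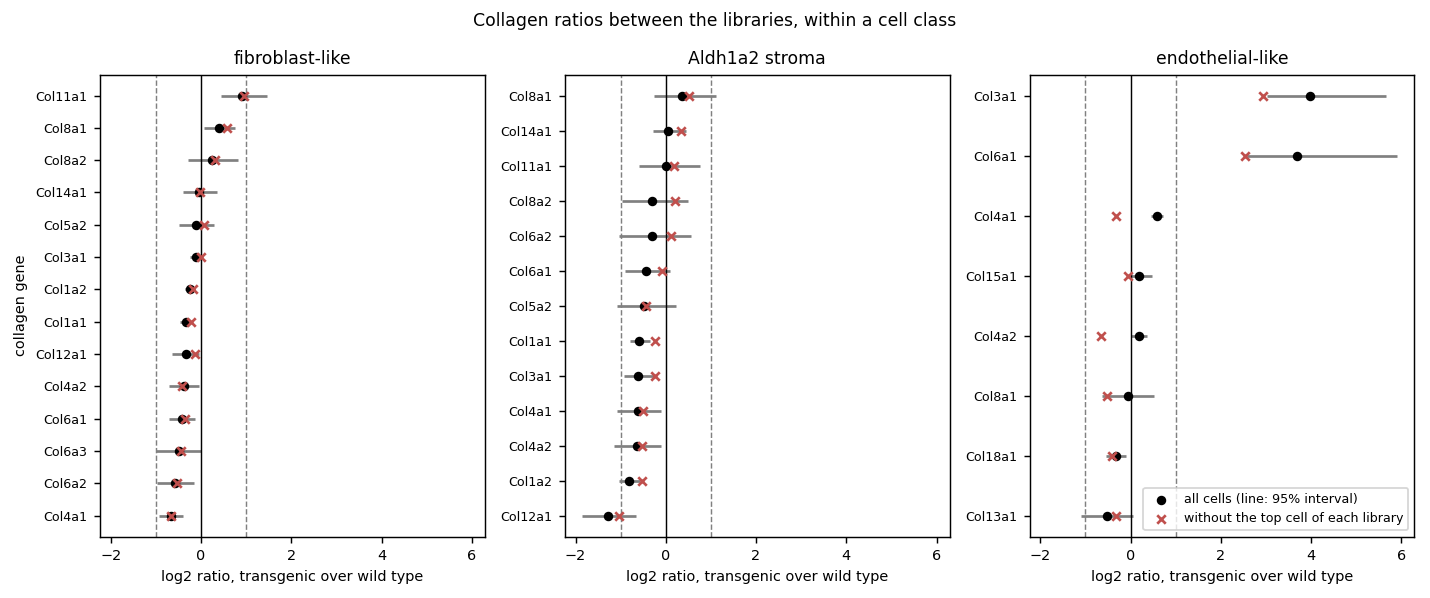
Log2 ratio of transgenic over wild-type level (horizontal axis) for each measured collagen in fibroblast-like, Aldh1a2 stromal and endothelial-like cells; black points use all cells with their 95% interval (counting error only), red crosses leave out the cell with the most UMIs of that gene in each library, and dashed lines mark 2-fold. All fibroblast-like points lie inside the dashed lines, while Col4a1 and Col4a2 in endothelial-like cells change sign without the top cells.

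The rarest members had few UMIs. Col6a4 had 9 UMIs over all kept cells of both libraries, Col19a1 10, Col22a1 18, Col10a1 29, Col6a5 32 and Col20a1 40. Of the 43 members, 17 were not measured in any class of 3 or more cells: these 6 with Col2a1, Col4a3, Col4a4, Col4a5, Col4a6, Col5a3, Col6a6, Col9a1, Col24a1, Col26a1 and Col28a1. All Col22a1 UMIs lay in osteoblast-like cells, 1 transgenic and 17 wild-type, as did 30 of the Col6a5 UMIs. For the others of these 6 a low count was not distinguishable from absence in most classes at this depth.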

How the data were processed

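Olfactory epithelium was profiled with 10x Genomics 3′ chemistry, per the labels' protocols. The authors deposited unfiltered UMI counts per gene and barcode (raw counts, not normalized), with 70572741 and 55701219 UMIs in the 2 libraries. Cell Ranger 6.1.1 with GRCm39 is named in the submitters' processing notes, and the matrix header names another version. Aligner settings are not given in the sources used here.

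Barcodes were kept with at least 10% of the 99th percentile of the top 5000 barcodes (5827 and 5318 UMIs), 500 genes and at most 10% mitochondrial UMIs, and Scrublet removed 4 and 2 doublets, which is under 0.5% of cells, so doublets may remain. Without collagen genes, cells were clustered in scanpy 1.11.5 (2000 variable genes, 30 components, 15 neighbours, Leiden resolution 1, 28 clusters), and 305 stromal cells again (15 components, 14 sub-clusters). Names came from 29 lists of 179 markers. To take a name, a cluster had to show at least 3 markers of that list at 2-fold or more above the other cells. The log2 excess of the list also had to average 1 or more. Counts were summed per class and library. Ratios had 1 UMI added to each sum. A comparison of classes used 4-fold in both libraries, and one of libraries 2-fold. The ratio script was tested on simulated data. Alternatives covered cell filters, resolution, doublet removal, scaling and filters. Named genes were the members, in each list of collagen partners the 2 genes with the largest ratio between fibroblast-like and endothelial-like cells in each direction, and the 5 genes most like Col1a1 and Col4a1. The members and lists were chosen with earlier results of these data known.

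Promoter windows came from RefSeq (GRCm38.p6), where 34 of 43 members matched. Col1a1, Col2a1, Col4a3, Col5a2, Col9a3, Col12a1, Col14a1, Col22a1 and Col26a1 did not match.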

Additional observations from a re-analysis of the deposited data

Results flagged for a closer look

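Collagen UMIs also lay in cells that were left without a class name. A cluster led by Dcpp1, Dcpp3 and Msln (38 transgenic and 31 wild-type cells) held Col26a1 at 119 CPM in the transgenic and 109.8 CPM in the wild-type library, with a UMI in 89.5% and 70.97% of its cells. It held Col9a1, a type IX chain, at 79.8 CPM and 38.5 CPM, with a UMI in 68.4% and 61.3% of cells. Col9a3, another type IX chain, stood beside it at 38.5 and 52.1 CPM, with a UMI in 60.5% and 70.97% of cells. Col26a1 and Col9a1 are singled out because these cells enter no comparison above and the levels exceed free RNA, at 4.67 and 4.77 CPM for Col26a1 and 4.67 and 3.90 CPM for Col9a1. The cluster's best marker score was sustentacular (mean log2 excess 1.82, 4 of 6 markers at 2-fold or more), which met the naming rule. It was left unnamed by a separate rule for clusters led by Dcpp genes, and its cell type was not determined.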

How the results depend on the processing

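The fibrillar share in fibroblast-like cells and the type IV share in endothelial-like cells stayed above 50% under every alternative run, while counts moved with the class boundaries. The 8 collagens highest in fibroblast-like cells became 0 with a minimum of 500 UMIs, 0 with 1000, 5 with 2000, 1 at resolution 0.5 and 2 with classes of 3 or more cells, as osteoblast-like or Aldh1a2 stromal cells ranked first. The share of all measured genes, 2.04% in the main run, was 0.783%, 0.765%, 1.60%, 1.26% and 0.673% in the same order. The fibroblast-like class had 69, 67 and 80 cells under those minimums and 45 at resolution 0.5, against 73. The transgenic fibrillar share of 69.2% became 73.1%, 73.2% and 70.6% with the 3 minimums, 73.1% at resolution 0.5 and 72.9% with osteoblast-like and Aldh1a2 stromal cells added. The wild-type share of 67.6% became 72.2% and 71.9% with minimums of 500 and 1000, 74.1% at resolution 0.5 and 86.8% with those cells added. The transgenic type IV share in endothelial-like cells, 59.6%, became 61.5% with a minimum of 500 UMIs, 52.8% without cells with a Dcn UMI and 54.1% without cells with 10 or more Rgs5 UMIs.

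Members past 2-fold between libraries in fibroblast-like cells went from 0 to 1 with a minimum of 500, 1000 or 2000 UMIs, 1 with 10 UMIs as the only filter, and 3 with the stromal cells added. In endothelial-like cells they went from 2 to 11 with 10 UMIs as the only filter and to 0 without the Rgs5 cells. In the latter case Col3a1 and Col6a1 fell below the 50 UMI limit, with Col3a1 still at 15.5 and 1.12 CPM. The share of all genes past 2-fold was not computed under these alternatives, so their counts have no background. The Col4a1 log2 ratio of transgenic over wild type in endothelial-like cells, 0.58, turned to -0.32 without the top cells, -0.29 without cells with a Dcn UMI and -0.39 without the Rgs5 cells. That of Col4a2, 0.19, turned to -0.66, -0.61 and -0.65 in the same order. The transgenic log2 ratio of fibroblast-like over endothelial-like cells for Col4a2, -0.64, turned to 0.17 without cells with a Dcn UMI and 0.22 without the Rgs5 cells. Apart from the shift in which cells were counted, the cause of these moves was not tested. Of 496 recomputed values of 56 class levels, 424 stayed within 1.5 times. Leaving out cells, adding stromal cells, admitting small classes and the rule that named stromal sub-clusters were chosen after seeing the data. No paired analysis was possible because there is 1 library per genotype. Depth limits the small classes, and 1 library per genotype limits every comparison between genotypes.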
